A study of Mus musculus with 33 samples.

Results

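The genes described here were 9 markers of mature B cells and of the BAFF system, chosen by their symbols: Tnfrsf13c (BAFF receptor), Tnfsf13b (BAFF), Cd40, Ms4a1 (CD20), Cd22, Cd37, Cr2 (CD21), Fcer2a (CD23) and Cxcr5. They were 9 of the 750 endogenous probes on a NanoString nCounter immune panel, and all 9 were among the 655 probes tested, which were above background in at least 2 lanes. The assay reads bar-coded probes bound to their target molecules directly, with no amplification step, and 1 lane holds the RNA of 1 mouse. Normalised counts are raw counts divided by the lane's housekeeping scale, so each probe can be compared between mice but not with another probe. Background was the mean plus 2 SD of a lane's 8 negative control probes, and lay between 1.83 and 7.85 counts. In RNA of whole marrow, fewer cells of a type and less RNA per cell cannot be told apart.

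All mice were female C57BL/6 wild type, aged 6 to 8 weeks, and the RNA was total RNA of whole bone marrow. The BCL2 inhibitor venetoclax (once daily) or the JAK1/2 inhibitor ruxolitinib (2 times a day) was given by gavage over 2 days. Each drug had its own vehicle: phosal, polyethylene glycol and ethanol for venetoclax, and DMSO with polyethylene glycol in water for ruxolitinib. The dose figures were 100 for venetoclax and 180 for ruxolitinib, in mg/kg per the study's methods and in mg/ml per the deposited design text. Marrow was taken on days 1, 3 and 7 after treatment from 3 mice given a drug and 2 given its vehicle, per drug and day. With 3 untreated mice this made 33 mice in 13 groups. The 11 lanes of a day formed 1 run and held 1 untreated mouse each, so day and run cannot be told apart, and drug and vehicle were set against each other inside 1 run. The run header of the day 3 lanes reads day 2.

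B cells leave the marrow immature and finish their maturation in the spleen, and mature B cells return to the marrow through the blood. BAFF, a cytokine of the TNF family made largely by myeloid and stromal cells, keeps mature B cells alive through the BAFF receptor, which signals by way of TRAF3 and the alternative NF-kB pathway. CD20, CD22 and CD37 sit on the B cell surface, CD21 is raised on mature B cells, CD23 marks follicular B cells, CD40 takes help from T cells, and CXCR5 leads cells to the follicle.

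Lane totals of the endogenous probes ranged from 18056 to 466096 counts (median 158944). The first venetoclax mouse of day 1 (18056 counts) and the first ruxolitinib mouse of day 3 (26881 counts) lay under 30000. Summed normalised counts of 6 neutrophil probes had group means between 51058 and 102191, and those of 10 B lineage probes between 519 and 1054. Cxcl13, which follicular dendritic cells produce, was above background in 0 of 33 lanes, and Cr2 and Fcer2a are also expressed by these cells. All adjusted p-values are Benjamini-Hochberg values over 655 probes from edgeR's quasi-likelihood test, with the SE given after each log2 fold change. The mice of a group were separate animals, and a comparison within a day rests on 3 against 2 of them, for which an exact permutation test of a single gene cannot go below p = 0.2.

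Detection differed between the 9 genes. Ms4a1 and Cd37 were above background in 33 of 33 lanes, Tnfsf13b in 32, Cd22 in 31, Tnfrsf13c in 28, Cd40 in 27, Cxcr5 in 23, Fcer2a in 18 and Cr2 in 9. Group means of Cr2 differed most between the highest and lowest group (8.14-fold), but its raw counts lay between 1 and 11. Cd37 differed least (1.58-fold, raw counts 46 to 1216). When the 13 group means were ordered, the mice of neighbouring groups overlapped at 12 of 12 steps for 7 genes and at 11 of 12 steps for Cd22 and Cr2, so the order of neighbouring groups was not resolved. Over 16 comparisons the 9 genes gave 144 tests, of which 5 passed an adjusted p of 0.05 and 24 had an unadjusted p under 0.05. All 655 probes gave 10480 tests, of which 77 passed (0.735%) and 813 had an unadjusted p under 0.05 (7.76%).

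Tnfrsf13c, the receptor that transmits the BAFF survival signal, was higher after ruxolitinib than after its vehicle on day 1. The ruxolitinib mice had 21.97, 32.8 and 29.5 normalised counts and the vehicle mice 13.7 and 9.59. All 3 treated mice lay above both vehicle mice. The log2 fold change was 1.34 (SE 0.38, adjusted p = 0.0473), a 2.54-fold rise. The call was lost without vehicle mouse 1 (1.55, adjusted p = 0.0884), vehicle mouse 2 (1.03, adjusted p = 0.736), ruxolitinib mouse 2 (1.22, adjusted p = 0.193) or ruxolitinib mouse 3 (1.31, adjusted p = 0.137), and DESeq2 (1.24, adjusted p = 0.148) and limma (1.20, adjusted p = 0.747) did not make it. It passed with both vehicles of the day as control (1.06, adjusted p = 0.0373) and with only the groups compared (1.37, adjusted p = 0.00313). Against untreated mice the log2 difference was 0.81 (adjusted p = 0.376).

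In venetoclax mice of day 1 Tnfrsf13c read 11.1, 2.49 and 6.36 normalised counts, against 12.9 and 19.1 in the vehicle. All 3 treated mice were below both vehicle mice. These values rest on raw counts of 2, 4 and 3, of which 1 of 3 was above background, against 12 and 24. The log2 fold change of -1.95 (SE 0.61) had an adjusted p of 0.0997, and it passed when only the groups compared were fitted (-1.97, adjusted p = 0.0282). Without single mice it ran from -2.22 to -1.07, the latter without venetoclax mouse 2, and did not pass. DESeq2 gave -1.84 and no adjusted p for it.

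On day 3 Tnfrsf13c was 13.1, 13.4 and 13.7 after venetoclax against 5.77 and 9.82 after vehicle, with no overlap (log2 fold change 0.66, SE 0.47, adjusted p = 0.670), and the sign turned against untreated mice (-0.25). The ruxolitinib mice (16.5, 13.5 and 11.2) lay between their vehicle mice (7.35 and 25.1), with a log2 fold change of -0.42. On day 7 the ruxolitinib mice had 8.61, 10.3 and 9.32 and their vehicle mice 22.9 and 34.8. The treated mice were all lower, by 2.74-fold, but the log2 fold change of -1.46 (SE 0.40) had an adjusted p of 0.270, and it was -0.75 against untreated mice (adjusted p = 0.264). Venetoclax mice of day 7 (36.5, 19.0 and 15.9) overlapped their vehicle mice (22.7 and 11.2), at a log2 fold change of 0.09. Untreated mice spanned 3.20, 15.7 and 30.3 in the runs of days 1, 3 and 7, a wider range than that of the 13 group means (6.65 to 28.9), and the lowest rests on 1 raw count.

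**Figure D1:**
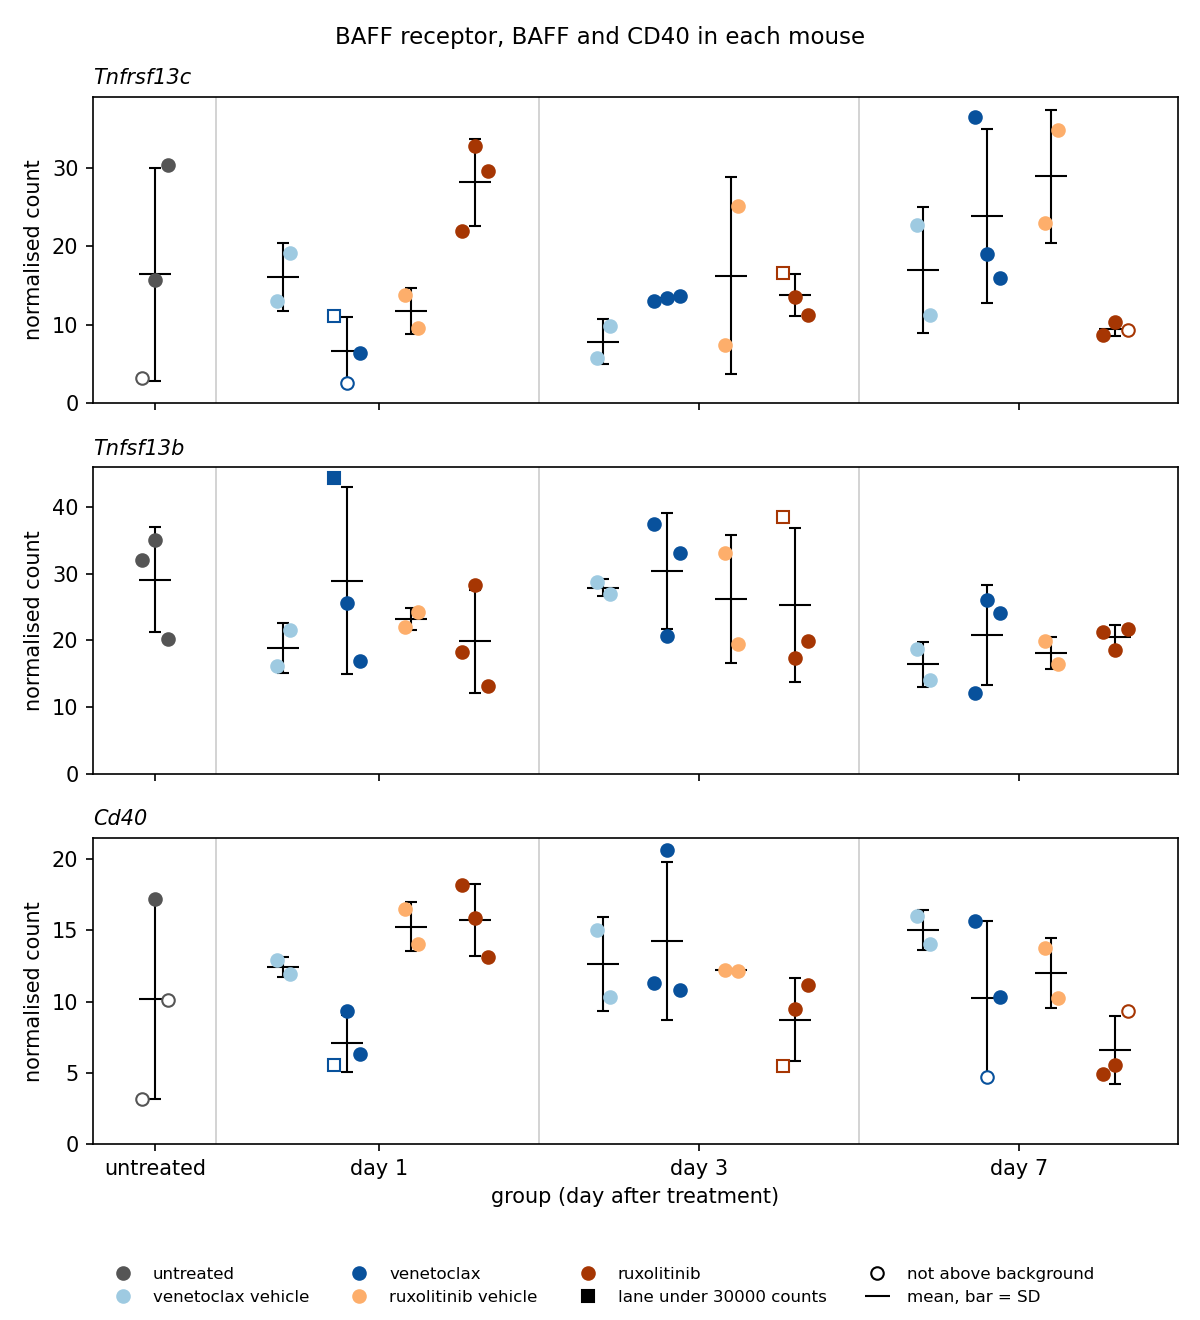
Normalised counts of Tnfrsf13c, Tnfsf13b and Cd40 (vertical axes, linear) in every mouse of the 13 groups, by day after treatment; points are mice, open points are not above background, squares are the 2 lanes under 30000 counts, and bars are the mean and SD. Tnfrsf13c lay between 21.97 and 32.8 in ruxolitinib mice of day 1 and between 8.61 and 10.3 on day 7, and single mice of Tnfsf13b in all groups between 12.2 and 44.4.

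The upstream sequences of Tnfrsf13c and Cd22 are shown because these were the genes with a called difference between a drug and its vehicle. Each is the 250 bases before the RefSeq start site (build GRCm38.p6, minus strand, printed 5′ to 3′), with motif matches in capitals. Tnfrsf13c lies at chr15:82224381-82224630 and Cd22 at chr7:30879029-30879278.
Tnfrsf13c: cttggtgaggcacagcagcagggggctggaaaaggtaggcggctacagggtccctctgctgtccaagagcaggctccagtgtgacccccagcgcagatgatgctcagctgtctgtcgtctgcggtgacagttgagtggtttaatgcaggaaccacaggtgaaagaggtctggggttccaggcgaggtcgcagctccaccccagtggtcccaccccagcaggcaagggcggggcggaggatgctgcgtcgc
Cd22: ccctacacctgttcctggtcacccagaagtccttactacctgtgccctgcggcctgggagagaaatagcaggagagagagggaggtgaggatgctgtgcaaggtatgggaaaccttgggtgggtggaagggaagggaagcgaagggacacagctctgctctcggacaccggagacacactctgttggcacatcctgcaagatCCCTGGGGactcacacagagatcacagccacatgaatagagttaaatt
The letters of 4 motifs were searched on both strands: the octamer ATGCAAAT bound by OCT factors of B cells, the EBF core CCCNNGGG, a PU.1 site GAGGAAGT and the STAT site TTCNNNGAA. None overlapped another in these sequences. The Cd22 sequence held 1 EBF core, which starts 48 bases before the start site, and 11.8% of the 32851 promoters in the table hold one. The Tnfrsf13c sequence held none of the 4, which says only that these letters are not in this window. Of the 9 genes 6 had a promoter in the table (Tnfrsf13c, Tnfsf13b, Cr2, Fcer2a, Cd22 and Cd37). Among their 9 promoters only Cd37 held a further match, the PU.1 letters, which 2.44% of promoters hold, against 1.6% for the octamer and 7.02% for the STAT site.

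Tnfsf13b, the ligand BAFF, did not pass the test in any of the 16 comparisons. On day 1 the venetoclax mice had 44.4, 25.5 and 17.0 normalised counts against 16.2 and 21.5 in vehicle, and the ruxolitinib mice 18.2, 28.3 and 13.1 against 21.98 and 24.3. The highest value, 44.4, came from the lane with 18056 counts, where it rests on 8 raw counts. Each drug group overlapped its vehicle on each day, and the 6 log2 fold changes lay between -0.33 and 0.42. Over the 3 days the venetoclax log2 fold change was 0.28 (95% interval -0.15 to 0.71) and that of ruxolitinib -0.16 (-0.57 to 0.25). Whether the changes of Tnfrsf13c and of its ligand differ was not tested.

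Cd40, the receptor for CD40 ligand on T cells, was low throughout (raw counts 1 to 45). On day 7 the ruxolitinib mice read 4.92, 5.58 and 9.32 normalised counts against 13.7 and 10.2 in vehicle, without overlap (log2 fold change -1.20, SE 0.37, adjusted p = 0.297). On day 3 the ruxolitinib mice (5.50, 9.50 and 11.2) were again below both vehicle mice (12.2 and 12.2), with a log2 fold change of -0.33 (adjusted p = 0.998). On day 1 the ruxolitinib mice (18.2, 15.8 and 13.1) overlapped theirs (16.5 and 14.0). Venetoclax mice of day 1 (5.55, 9.34 and 6.36) were below their vehicle mice (12.9 and 11.9), at a log2 fold change of -0.59 (adjusted p = 0.752). None of these differences from vehicle passed. Against untreated mice, of which 1 of 3 was above background, the lower level in ruxolitinib mice of day 7 passed (adjusted p = 0.0427), as did 87 of 655 probes.

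Ms4a1, which encodes CD20, was above background in every lane, and its difference between ruxolitinib and vehicle mice had opposite signs on days 1 and 7. On day 1 they had 79.1, 92.2 and 65.1 normalised counts against 37.5 and 46.9 in vehicle. All treated mice were higher (mean 78.8 against 42.2), at a log2 fold change of 0.88 (SE 0.34, adjusted p = 0.220), which passed when only the groups compared were fitted (0.86, adjusted p = 0.00501) and was 0.45 against untreated mice (adjusted p = 0.658). On day 7 they had 30.3, 55.2 and 49.7 against 97.7 and 96.3. All treated mice were lower (mean 45.1 against 97.0), at a log2 fold change of -1.13 (SE 0.34, adjusted p = 0.297), and -0.38 against untreated mice (adjusted p = 0.470). Neither difference passed on its own day, and the difference between the days did. On day 3 the ruxolitinib mice (44.03, 43.1 and 27.3) overlapped their vehicle (28.2 and 61.6).

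Venetoclax mice of day 1 had 44.4, 23.05 and 33.9 normalised counts of Ms4a1 against 55.0 and 47.0, again without overlap but below the vehicle (log2 fold change -0.79, SE 0.41, adjusted p = 0.532). On day 3 (47.9, 36.0 and 36.7 against 33.4 and 37.3) and day 7 (127, 85.4 and 67.8 against 94.5 and 115) the groups overlapped. Their log2 fold changes were 0.17 and -0.18. The run of day 7 read high for Ms4a1 in all groups but ruxolitinib. Its untreated mouse had 118, and those of the other runs 38.4 and 36.6.

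Cd22, an inhibitory receptor of the sialic acid-binding family that restrains B cell receptor signalling, fell after venetoclax over the 3 days. The venetoclax mice had 49.9, 44.8 and 63.6 normalised counts on day 1 against 86.3 and 61.3 in vehicle. On day 3 they had 59.2, 59.7 and 28.8 against 151 and 73.2, and on day 7 27.8, 14.2 and 18.4 against 23.8 and 56.2. The groups were separate on day 3 and overlapped on days 1 and 7. The mean log2 fold change was -0.80 (SE 0.23, adjusted p = 0.0476), 1.74-fold lower. A two-sided exact permutation test within days gave a mean log2 difference of -0.84 with p = 0.008 and an adjusted p of 0.194, where 0.002 is the smallest p it allows.

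The Cd22 call was close to the threshold and was lost without any 1 of 9 of the 15 lanes. These were the venetoclax vehicle mice 1 (-0.72, adjusted p = 0.195) and 2 (-0.88, adjusted p = 0.0593) of day 1, 1 of day 3 (-0.61, adjusted p = 0.255) and 2 of day 7 (-0.64, adjusted p = 0.228). The venetoclax mice were 1 (-0.80, adjusted p = 0.0703) and 2 (-0.74, adjusted p = 0.124) of day 1, 3 of day 3 (-0.70, adjusted p = 0.120), and 2 (-0.77, adjusted p = 0.0887) and 3 (-0.76, adjusted p = 0.156) of day 7. DESeq2 gave -0.80 (adjusted p = 0.0695) and limma -0.84 (adjusted p = 0.109), with the same direction and without the call.

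After ruxolitinib Cd22 was 38.5, 26.1 and 55.8 on day 3 against 85.7 and 64.1, with all treated mice lower (log2 fold change -0.96, SE 0.39, adjusted p = 0.865). On day 7 it was 21.7, 21.4 and 18.6 against 34.5 and 26.6, also without overlap (-0.59, adjusted p = 0.999). Against untreated mice, whose level differed between runs, day 7 gave -1.98 for ruxolitinib (adjusted p = 0.000916) and -2.07 for venetoclax (adjusted p = 0.00129). In these 2 comparisons 87 and 66 of 655 probes passed, against 1 each with vehicle as control. On day 1 (121, 89.4 and 106 against 96.2 and 84.2) the groups overlapped. Its mean over the 3 days was -0.44 (SE 0.22, adjusted p = 0.551), and the difference between the drugs over the 3 days was -0.36 (adjusted p = 0.936). Cd22 went the other way from Ms4a1 between runs: the untreated mice had 122 and 88.9 in the runs of days 1 and 3 and 37.1 in that of day 7.

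Cd37, a tetraspanin of B cells and other leukocytes, had the smallest spread between the mice of a group among the 9 genes (mean SD 12.6% of the group mean). Its 6 log2 fold changes against vehicle lay between -0.46 and 0.11. The lowest was ruxolitinib on day 3, where mice of 253, 300 and 340 normalised counts lay below vehicle mice of 468 and 362 (SE 0.22, adjusted p = 0.966). The first of these is the lane with 26881 counts. No test of Cd37 passed, and the 95% interval of its venetoclax change over 3 days was -0.28 to 0.24.

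**Figure D2:**
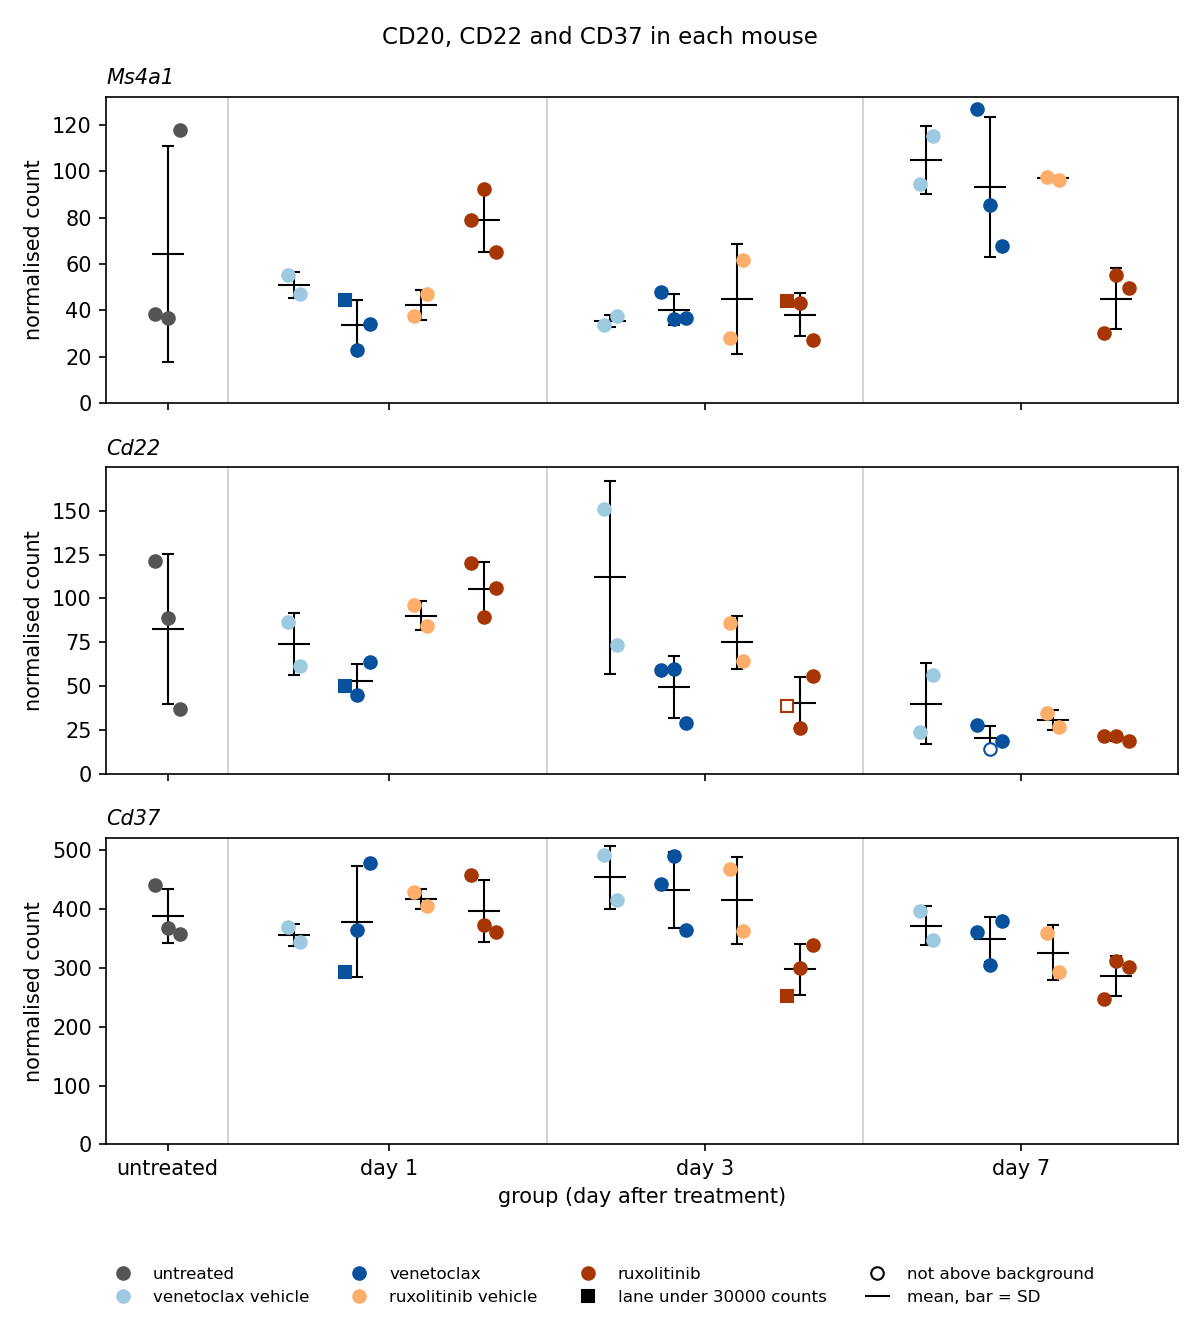
Normalised counts of Ms4a1, Cd22 and Cd37 (vertical axes, linear) in every mouse, drawn as for the receptor genes, with mean and SD. In the run of day 7 the vehicle mice of Ms4a1 lay between 94.5 and 115 and those of Cd22 between 23.8 and 56.2, while ruxolitinib mice of that day had 30.3 to 55.2 for Ms4a1.

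Fcer2a encodes CD23, the low-affinity IgE receptor of mature follicular B cells, and was above background in all 3 ruxolitinib mice of day 1. They had 6.28, 11.9 and 16.4 normalised counts against 2.75 and 4.45 in vehicle. All treated mice were higher (log2 fold change 1.56, SE 0.52, adjusted p = 0.112), and the difference passed when both vehicles of the day served as control (1.69, adjusted p = 0.0205) or only the groups compared were fitted (1.55, adjusted p = 0.0300). Against untreated mice the log2 difference was 0.29 (adjusted p = 0.902). On day 3 and day 7 the ruxolitinib groups overlapped their vehicle, with log2 fold changes of 0.25 and 0.10. Venetoclax mice overlapped theirs on all 3 days and had at most 1 lane above background per day.

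Cr2 encodes the complement receptors CD21 and CD35. Its raw counts in the ruxolitinib mice of day 1 were 6, 9 and 11, all above background, against 2 and 6 in vehicle, neither above background. In normalised counts these were 3.77, 5.09 and 6.02 against 1.83 and 2.05, without overlap (log2 fold change 1.29, SE 0.75, adjusted p = 0.479). The 3 venetoclax mice of day 3 had 1 raw count each. On day 7 ruxolitinib mice (2.87, 2.94 and 15.5) were above their vehicle mice (2.14 and 2.05), where the highest rests on 5 raw counts. No test of Cr2 passed.

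Cxcr5, the receptor for CXCL13, had its highest group mean in ruxolitinib mice of day 1 (11.9, 15.3 and 19.1 against 7.33 and 11.6, log2 fold change 0.62, SE 0.33, adjusted p = 0.452). All treated mice were higher than both vehicle mice, and the difference passed with both vehicles of the day as control (1.11, adjusted p = 0.0286). Venetoclax mice of day 7 (3.47, 4.74 and 5.93) were all below theirs (8.20 and 14.0), at a log2 fold change of -0.79 (adjusted p = 0.999). On days 1 and 3 they overlapped, at -0.51 and -0.71. The mean over the 3 days was -0.67 (SE 0.30, adjusted p = 0.414), and the exact permutation test within days gave p = 0.012 (adjusted p = 0.238). With both vehicles as control the 3-day log2 fold change was -0.89 (adjusted p = 0.0339). It also passed with untreated mice as control (adjusted p = 0.0102), as did days 1 and 7 singly (adjusted p = 0.0255 and 0.0269). Of the untreated mice 1 of 3 was above background, and 4 of the 9 venetoclax mice were.

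**Figure D3:**
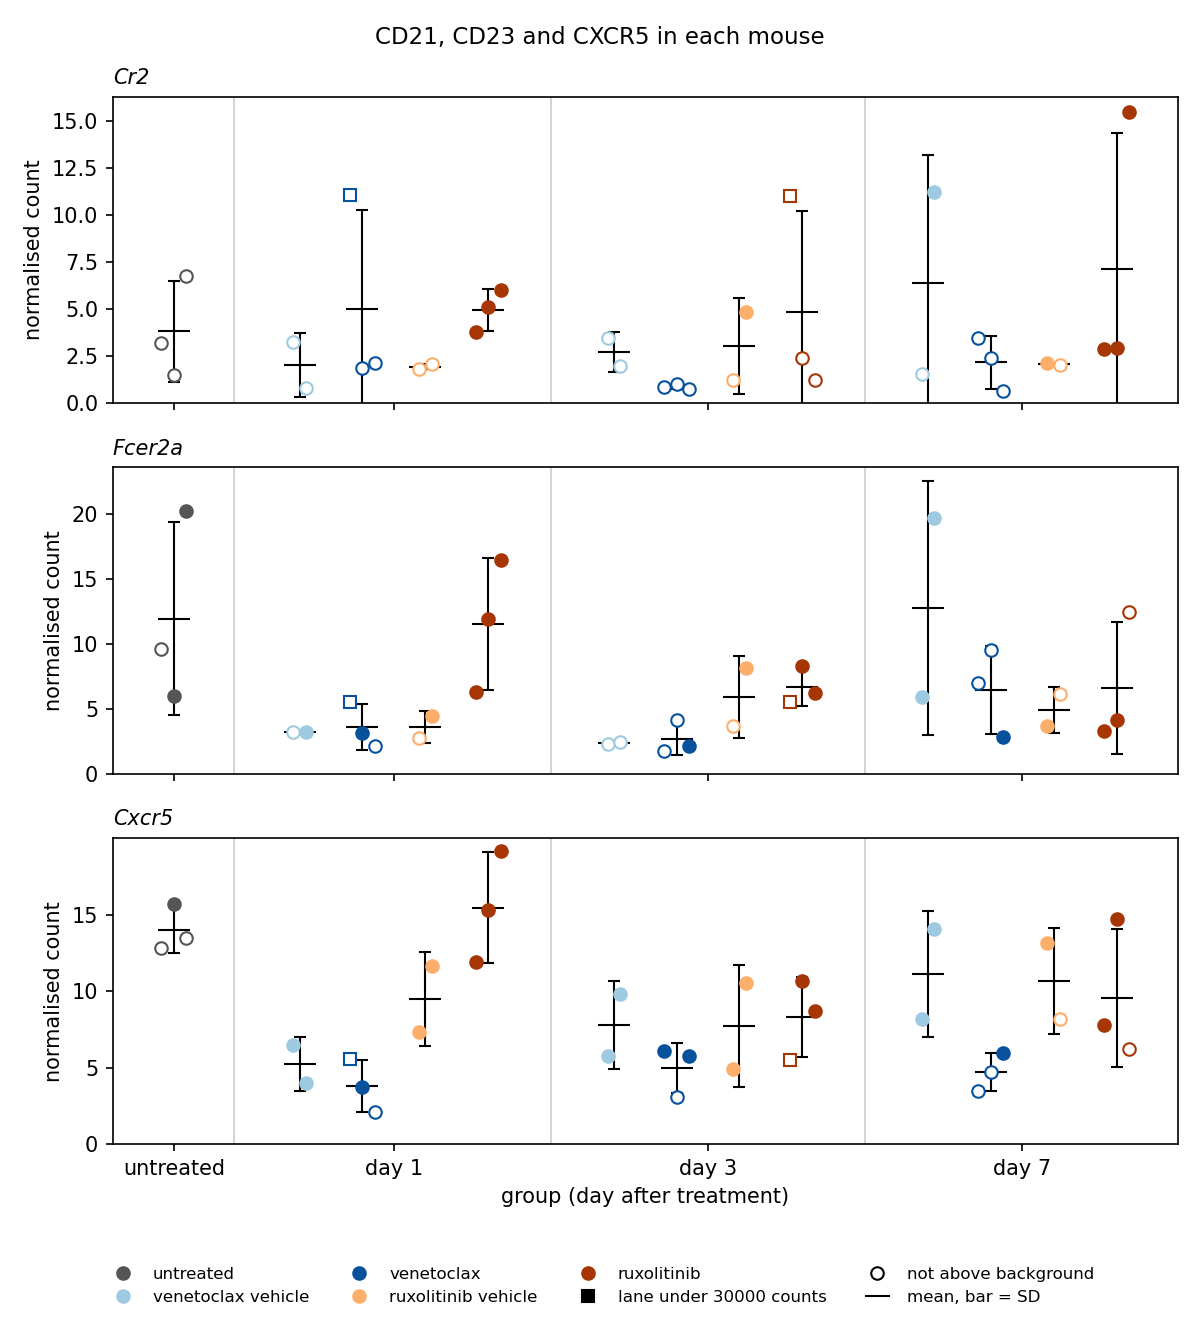
Normalised counts of Cr2, Fcer2a and Cxcr5 (vertical axes, linear) in every mouse, drawn as for the receptor genes, with SD bars ending at 0. Many points are open, since Cr2 was above background in 9 and Fcer2a in 18 of 33 lanes. For all 3 genes the ruxolitinib mice of day 1 lay above their vehicle mice.

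Across the 9 genes ruxolitinib on day 1 gave the largest number of higher readings. Tnfrsf13c, Ms4a1, Fcer2a, Cr2 and Cxcr5 had all treated mice above all vehicle mice, that is 5 of 9, where 27.6% of the 655 probes did. The median log2 fold change of the 9 genes was 0.62 and that of all probes 0.13. 1 of 9 passed, against 2.75% of all probes. Whether these shares differ was not tested. The signs of the 9 genes, 7 higher and 2 lower, were 6 and 3 under TMM scaling and 8 and 1 under total count scaling. Of all 655 probes 59.1% were higher with the housekeeping scale.

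On day 3 ruxolitinib groups were separate for Cd22, Cd37 and Cd40, all lower, where 7.94% of probes were separate in that direction. Their median over the 9 genes was -0.33, against 0.02 over all probes. On day 7 Tnfrsf13c, Ms4a1, Cd40 and Cd22 were lower without overlap, as were 9.62% of probes, and Cr2 was higher, as were 8.09%. The medians were -0.20 and 0.02. The edgeR test called 0 of 9 on either day (0.153% of probes each), with 2 and 3 of 9 at an unadjusted p under 0.05 (31 and 23 of the 655 probes). DESeq2 and limma also called 0 of the 9, and 2 and 1 (DESeq2) and 1 and 0 (limma) of all probes. Over the 3 days it called 0 of 9 (1.22% of probes) with 2 under the unadjusted threshold, Cd22 and Cd40 (58 of 655 probes). There DESeq2 and limma called 0 of the 9, and 8 and 0 of all probes.

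Venetoclax groups were separate for 3 of 9 genes on day 1 (Tnfrsf13c, Ms4a1 and Cd40, all lower), where 15.7% of probes were lower in this way. On day 3 Tnfrsf13c was separate and higher (13% of probes) and Cd22 separate and lower (13.1%), and on day 7 Cxcr5 was lower (10.7%). Cr2 also read lower on day 3, but was above background in 0 of the 5 lanes. The edgeR test called 0 of 9 on days 1, 3 and 7, against 0.153%, 0% and 0.153% of probes, with 1, 1 and 0 at an unadjusted p under 0.05 (68, 70 and 31 of the 655 probes). DESeq2 and limma called 0 of the 9 too, and 4, 1 and 1 (DESeq2) and 0, 0 and 0 (limma) of all probes. Over the 3 days 1 of 9 passed (Cd22), against 2.90% of probes. Of the 9 genes 8 had a negative log2 fold change, with a median of -0.31, while the median of all probes was 0.04. Of all probes 56.3% had a positive one. With all 20 housekeeping probes 7 of the 9 genes were negative.

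**Figure D4:**
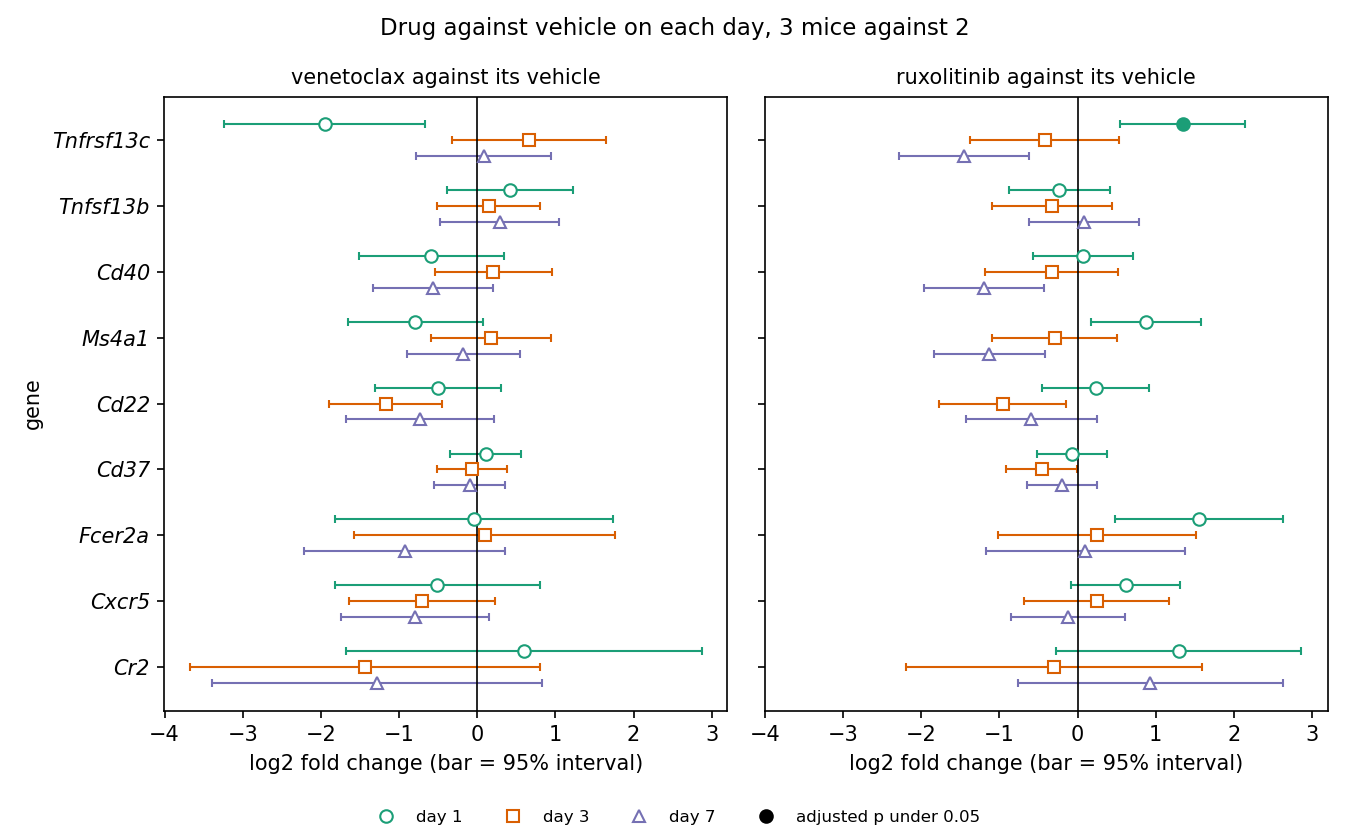
Log2 fold change (horizontal axes) of the 9 genes against vehicle on days 1, 3 and 7, for venetoclax (left) and ruxolitinib (right). Bars are 95% intervals built from the SE of the edgeR fit, and the filled symbol passed an adjusted p of 0.05. The filled symbol is Tnfrsf13c after ruxolitinib on day 1 (1.34), and its value after venetoclax on that day is -1.95.

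The drugs differed in Tnfrsf13c on day 1. The change after venetoclax minus that after ruxolitinib, each against its own vehicle, was -3.30 on the log2 scale (SE 0.72, adjusted p = 0.0102). The venetoclax side of this rests on counts near background, and the comparison shares its lanes with the 2 comparisons above. The call was lost without venetoclax mouse 2 (-2.41, adjusted p = 0.216), venetoclax vehicle mouse 2 (-2.96, adjusted p = 0.0869) or ruxolitinib vehicle mouse 2 (-2.98, adjusted p = 0.0929). Without the 2 lanes under 30000 counts it was -3.56 (adjusted p = 0.0126). DESeq2 gave -3.08 (adjusted p = 0.0103) and limma -2.51 (adjusted p = 0.294). Ms4a1 had -1.67 (SE 0.53, adjusted p = 0.103) in the same comparison. In all 1 of 9 passed on day 1, where 1.68% of probes did.

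On days 3 and 7 the edgeR test of the difference between drugs called 0 of 9 (0.153% and 0.305% of probes), with 0 and 1 at an unadjusted p under 0.05 (20 and 25 of 655 probes). That 1 was Tnfrsf13c on day 7, at 1.54 (SE 0.57, adjusted p = 0.912), which ran from 1.18 (without venetoclax mouse 1) to 2.38 (without venetoclax vehicle mouse 1). Over the 3 days it called 0 of 9 (0.611% of probes), with Cxcr5 at -0.92 (SE 0.37, adjusted p = 0.360) under the unadjusted threshold, as were 57 of 655 probes. DESeq2 and limma called 0 of the 9 in these comparisons, and 1, 2 and 3 (DESeq2) and 1, 0 and 4 (limma) of all probes on day 3, on day 7 and over the days.

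The ruxolitinib change differed between days 7 and 1 in Tnfrsf13c and Ms4a1. For Tnfrsf13c the difference was -2.80 (SE 0.55, adjusted p = 0.00192), from a change of 1.34 on day 1 to -1.46 on day 7. Its treated mice went from 28.1 ± 5.56 (SD, n = 3) to 9.40 ± 0.84 normalised counts and its vehicle mice from 11.7 ± 2.93 (SD, n = 2) to 28.9 ± 8.45. For Ms4a1 the difference was -2.01 (SE 0.48, adjusted p = 0.0148), with treated mice at 78.8 ± 13.6 and 45.1 ± 13.1 and vehicle mice at 42.2 ± 6.61 and 97.0 ± 0.97. In both genes the treated mean was lower and the vehicle mean higher on day 7. Thus 2 of 9 passed, against 1.53% of probes. Days were measured in different runs, and the vehicle mice are part of each difference.

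For Tnfrsf13c this call was lost without ruxolitinib vehicle mouse 2 of day 1 (-2.49, adjusted p = 0.0619). For Ms4a1 it was lost without ruxolitinib vehicle mouse 1 (-1.88, adjusted p = 0.0965) or 2 (-2.20, adjusted p = 0.0619) of day 1, ruxolitinib mouse 2 of day 1 (-1.88, adjusted p = 0.0582), vehicle mouse 1 of day 7 (-2.00, adjusted p = 0.108) or ruxolitinib mouse 1 of day 7 (-1.74, adjusted p = 0.0763). DESeq2 called both (adjusted p = 0.00464 and 0.00514) and limma neither (adjusted p = 0.280 and 0.246). For venetoclax the edgeR test of day 7 minus day 1 called 0 of 9 (0% of probes), with Tnfrsf13c at 2.04 (SE 0.75, adjusted p = 0.388) the 1 gene at an unadjusted p under 0.05 (37 of 655 probes), and DESeq2 and limma called 0 of all probes. Without single mice the Tnfrsf13c difference ran from 1.16 (without venetoclax mouse 2 of day 1) to 2.87 (without venetoclax vehicle mouse 1 of day 7).

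Several marker lists differed beside these readings. In ruxolitinib mice of day 1 the summed normalised counts of 5 dendritic cell probes were 1245 to 1775 against 847 to 854 in vehicle. Of these probes 4 of 5 were higher. The list includes the MHC class II genes H2-Aa and Cd74, which B cells also express. These 2 genes made up most of the sum in every group. In ruxolitinib mice of day 1 their means were 557 and 1028, of a mean sum of 1598. In venetoclax mice of day 1 the sums were 244 to 387 against 677 to 853, with 3 of 5 probes lower. Cd74 and H2-Aa themselves passed the test of the difference between drugs on day 1 (-2.14 and -2.48, adjusted p = 0.0172 and 0.0132). The 3 B cell precursor probes went the other way after ruxolitinib (148 to 184 against 276 to 341). On that day the summed T cell probes were higher after ruxolitinib (65.9 to 71.1 against 58.6 to 61.6), with 5 of 6 higher. The plasma cell probes were also higher in sum (178 to 205 against 141 to 171), although 2 of 5 were lower. The summed NK probes were lower (31.4 to 34.5 against 50.4 to 54.4), with 4 of 5 lower. None of these sums overlapped their vehicle. Such separation was common among single probes on day 1. After ruxolitinib 181 of 655 probes lay above vehicle in all treated mice, and 107 lay below. After venetoclax these numbers were 77 and 103. Whether the sums were separate more often than single probes was not tested. After ruxolitinib on day 1 the summed neutrophil probes were lower (76596 to 89099 against 94883 to 101708), although 4 of 6 of them were higher. After venetoclax on day 1 the monocyte and macrophage probes were higher in sum (561 to 617 against 445 to 535), with 3 of 6 higher.

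On day 3 the precursor probes were lower after ruxolitinib (59.5 to 176 against 279 to 350). After venetoclax the plasma cell probes were higher in sum on that day (190 to 208 against 150 to 155), with 4 of 5 higher. The T cell probes were lower (34.0 to 43.3 against 71.2 to 95.7), with 6 of 6 lower. The summed dendritic cell probes, mostly Cd74 and H2-Aa, were lower too (594 to 636 against 747 to 794), although 2 of 5 were higher. On day 7 all 5 plasma cell probes were lower after ruxolitinib (154 to 214 against 230 to 241). After venetoclax on day 7 the T cell probes were lower in sum (37.2 to 64.0 against 75.8 to 124), with 6 of 6 lower. The dendritic cell probes, again mostly Cd74 and H2-Aa, were too (813 to 1277 against 1398 to 1761), with 4 of 5 lower. The summed NK probes were higher (57.8 to 85.4 against 47.8 to 57.0), although 2 of 5 were lower. The other sums of these lists overlapped their vehicle. Single probes were separate on these days too. After ruxolitinib 50 of 655 probes lay wholly above vehicle and 52 wholly below on day 3, and 53 and 63 on day 7. After venetoclax these numbers were 85 and 86 on day 3, and 43 and 70 on day 7. The part of the marker lists in the readings of the 9 genes was not tested.

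The 10 B lineage probes themselves, including Cd79b and Pax5, gave 0 calls against vehicle on any single day in the edgeR test. Of all probes 0% to 2.75% passed in these comparisons. On day 1 their summed level was 904 to 998 after ruxolitinib against 928 to 988, with 4 of 10 higher, and 738 to 771 after venetoclax against 809 to 897. Taken relative to the mean log2 level of 9 of these probes in the same lane, Tnfrsf13c differed from vehicle by 1.27 after ruxolitinib and -0.86 after venetoclax on day 1, Ms4a1 by 0.94 and -0.18, and Fcer2a by 1.44 and 0.50. In the same order Cr2 differed by 1.06 and 1.23, Cxcr5 by 0.72 and 0.03, and Cd40 by 0.10 and -0.32. Cd37 differed by -0.02 and 0.51, and Tnfsf13b by -0.21 and 0.95. After venetoclax on day 1 Cr2 was above background in 0 of 3 treated and 0 of 2 vehicle lanes. Its highest reading there rests on 2 raw counts, in the lane with 18056 counts. The highest of Tnfsf13b, on 8 raw counts, came from the same lane. These are means of log2(normalised count + 1) with no test, and show unequal change within a lane only. On day 3 after ruxolitinib 9 of 10 B lineage probes were lower (585 to 699 against 890 to 1041), with a median log2 fold change of -0.90, beside the lower readings of Cd22, Cd37 and Cd40. Relative to them Tnfrsf13c was 0.72, Ms4a1 0.59, Cd37 0.27, Cd40 0.25 and Fcer2a 0.96. Cxcr5 was 0.87, Tnfsf13b 0.65 and Cr2 1.06, where Cr2 was above background in 0 of the 3 ruxolitinib lanes. On day 7 after ruxolitinib 10 of 10 B lineage probes were lower (485 to 562 against 760 to 768), with a median log2 fold change of -0.62. Relative to them Tnfrsf13c was -0.89, Ms4a1 -0.53, Cd40 -0.20, Cd22 0.07 and Fcer2a 0.81. Cxcr5 was 0.41, Cd37 0.42, Tnfsf13b 0.78 and Cr2 1.63. Cd22 relative to the lineage probes was 0.28 and -0.19 on days 1 and 3 after ruxolitinib, and -0.03, -0.99 and -0.98 on days 1, 3 and 7 after venetoclax.

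Over the 3 days after ruxolitinib 2 of 10 B lineage probes and 3 of 3 precursor probes passed, where 1.22% of all probes did. The B lineage probes that passed were Pax5 (-0.83, SE 0.21, adjusted p = 0.0264) and Pou2af1 (-0.92, SE 0.23, adjusted p = 0.0264). Pax5 is a transcription factor that holds cells in the B lineage, and Pou2af1 encodes a coactivator of octamer-binding factors. All 3 precursor probes fell too in the mean over the days: Igll1, part of the surrogate light chain, by 0.86, Il7r by 0.77 and Rag1, of the recombinase, by 1.11 on the log2 scale (adjusted p = 0.00808, 0.0105 and 0.00401). For Igll1 the days differed in sign, at -0.97 on day 1, -1.93 on day 3 (adjusted p = 0.00111) and 0.32 on day 7, where the ruxolitinib mice (184, 139 and 168 normalised counts) lay above vehicle (129 and 133). After venetoclax Igll1 fell on day 7 (-1.54, adjusted p = 0.0142), while 2 of the 3 precursor probes, Il7r and Rag1, were higher. Their means were 103 and 63.4 normalised counts against 62.6 and 42.5 in vehicle. Over the 3 days after venetoclax 0 of 10 B lineage and 0 of 3 precursor probes passed the edgeR test. Of all probes 2.90% did in that comparison. There Cd22 moved beside the T cell list, of which 6 of 6 probes were lower and Cd3d passed (-0.94, adjusted p = 0.0153), and beside H2-Aa (-0.94, adjusted p = 0.0122). Cd8a of that list also passed, but was above background in 16 of 33 lanes and in none of the venetoclax lanes (raw counts 1 to 4). The part of these in the lower Cd22 was not tested.

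Of 34 listed partners of the 9 genes (ligands, co-receptors, TRAF and NF-kB members, homing receptors) 32 were on the panel and 31 were tested. Against vehicle 0 of 31 passed on any single day for either drug, where 0% to 2.75% of all probes did, and the list medians lay between -0.10 and 0.08. Over the 3 days 2 of 31 fell after venetoclax, against 2.90% of all probes, and 0 after ruxolitinib (1.22%). They were Ccr6, a chemokine receptor of mature B cells and T cell subsets (-1.76, SE 0.36, adjusted p = 0.00359), and Rela, the p65 subunit of NF-kB (-0.48, SE 0.14, adjusted p = 0.0417). Ccr6 also differed between the drugs over the 3 days (-2.27, SE 0.45, adjusted p = 0.00345). Its levels were 5.55, 1.87 and 2.12 in venetoclax mice of day 1 against 8.63 and 4.78 in vehicle, where the groups overlapped. On day 3 they were 3.48, 3.09 and 1.44 against 16.1 and 8.84, and on day 7 3.47, 4.74 and 2.19 against 7.42 and 14.0, without overlap (log2 fold changes -2.13 and -1.65, adjusted p = 0.0819 and 0.730). These are low counts: Ccr6 was above background in 20 of 33 lanes and in 1 of the 9 venetoclax lanes.

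The direct ligands and receptors next to BAFF did not pass. Tnfsf13 (APRIL) was above background in 15 of 33 lanes and Tnfrsf17 (BCMA, the plasma cell receptor) in 6. Tnfrsf13b (TACI), which also binds BAFF, was above background in 27 lanes. In ruxolitinib mice of day 1 Tnfrsf13b had 16.9, 22.1 and 18.6 normalised counts against 21.98 and 18.1, and its log2 fold change of -0.03 (SE 0.28) stands beside 1.34 for Tnfrsf13c. On day 7 the ruxolitinib mice had 11.9, 12.9 and 6.21 of Tnfrsf13b against 16.2 and 24.6, lower without overlap (-0.62, adjusted p = 0.999), beside -1.46 for Tnfrsf13c. The venetoclax mice of day 7 (10.4, 16.6 and 14.1) were also below theirs (19.5 and 36.5), at -0.78 (adjusted p = 0.847), while Tnfrsf13c was at 0.09. On day 3 and on day 1 after venetoclax the groups overlapped. The difference between these genes was not tested. Cd40lg, the CD40 ligand, was above background in 25 lanes with log2 fold changes between -0.70 and 0.66.

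No difference of the 9 genes between controls passed the test. Ruxolitinib vehicle against venetoclax vehicle gave log2 differences between -0.10 and 0.43 for the 9 genes, and the edgeR test called 0 of 9 (0% of probes), with 0 at an unadjusted p under 0.05 (18 of 655 probes). The 6 vehicle groups against untreated mice also gave 0 of 9 (0% of probes), with 2 under the unadjusted threshold (75 of 655 probes). These were Fcer2a (-1.11, SE 0.50, adjusted p = 0.398) and Cxcr5 (-0.77, SE 0.33, adjusted p = 0.391), both lower in vehicle mice. Without single mice Fcer2a ran from -1.75 (without untreated mouse 2) to -0.64 (without untreated mouse 3). With run as a term, in a fit added after the data were seen, they were -1.13 and -0.72 (adjusted p = 0.348 and 0.428). DESeq2 and limma called 0 of the 9 in both comparisons. For vehicle against untreated mice limma called 1 of all probes, limma after background subtraction 8, edgeR with all 20 housekeeping probes 5, and DESeq2 0. Against untreated mice 7 of 9 genes were lower in vehicle mice, but 5 under TMM or total count scaling and 9 with all 20 housekeeping probes. With the housekeeping scale used here 31% of all probes were higher in vehicle mice. The untreated mice had 9.60, 5.98 and 20.2 normalised counts of Fcer2a and 12.8, 15.7 and 13.5 of Cxcr5, of which 2 of 3 and 1 of 3 were above background.

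The probes most like each gene over the 13 group means were taken from 354 probes with a mean of at least 20 normalised counts, by the root mean square difference of centred log2 levels. Ms4a1 was closest to Cd79b, the signalling chain of the B cell receptor (0.25, where the pattern of Ms4a1 itself has a root mean square of 0.55). Tnfrsf13c was closest to Cd38 (0.32 of 0.58), with Ms4a1 next (0.34), and Cd22 to Btla (0.29 of 0.79), with H2-Ob next (0.31). Cxcr5 was closest to Ltb, with the class II genes H2-Ab1 and H2-Eb1 next (0.24, 0.26 and 0.29 of 0.53). For Cr2 and Fcer2a the closest probes, Plau and Icosl, differed by 0.48 of 0.60 and 0.46 of 0.66, so no probe followed them closely. These likenesses include the run of each day and carry no test.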

How the data were processed

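Bone marrow RNA of 33 mice was counted on a NanoString nCounter immune panel. The panel is named differently in the study's methods (PanCancer Immune Profiling) and in the design text (Mouse Immunology). The authors deposited raw counts for 750 endogenous, 20 housekeeping, 8 negative and 6 positive probes per lane, and their own later normalisation is not part of these values. Here each lane was divided by its housekeeping scale, a geometric mean over the 11 of 20 such probes that exceeded background in all lanes. Probes above background in at least 2 lanes (655) were fitted in one 13-group model with edgeR 4.0.16 in R 4.3.3 (quasi-likelihood test, Benjamini-Hochberg adjustment over all 655, threshold 0.05). Intervals are 95%. Differences over the 3 days were also tested by exact permutation within days on log2(normalised count + 1). Totals per lane ran from 18056 to 466096, so readings of a few counts are imprecise.

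Alternatives were limma 3.58.1, DESeq2 1.42.0, other scalings, controls and filters, the replicate number as a block and leaving out each mouse. DESeq2 used its own size factors in place of the housekeeping scale, and its own filter before the adjustment. It therefore differed from edgeR in more than the test. The scripts were tested on simulated data. Named genes were the 9 members in all comparisons and, from the lists, those passing the test or adjacent to BAFF. The members and lists were chosen with earlier results of these data known. Promoters came from RefSeq (GRCm38.p6). Plots used matplotlib 3.10.9.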

Additional observations from a re-analysis of the deposited data

Results flagged for a closer look

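For 3 results the effect of a drug differed between groups by a test of the difference itself. The venetoclax change of Tnfrsf13c on day 1 minus that of ruxolitinib was -3.30 on the log2 scale (edgeR adjusted p = 0.0102), of which the venetoclax side rests on raw counts of 2, 4 and 3, with 1 of 3 above background, so the size is imprecise. The ruxolitinib change on day 7 minus that on day 1 was -2.80 for Tnfrsf13c (adjusted p = 0.00192) and -2.01 for Ms4a1 (adjusted p = 0.0148). The last 2 differences run across separate nCounter runs and share lanes with the first.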

How the results depend on the processing

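All 5 calls kept their direction in every alternative run, and 4 of them rest on few counts of Tnfrsf13c or on a value near the threshold of 0.05. The Tnfrsf13c rise after ruxolitinib on day 1 (1.34) did not pass with untreated mice as control (0.81), total count scaling (1.45), no low count filter (1.34), the replicate number as a block (1.37), the lanes under 30000 counts left out (1.35), limma (1.20), limma after background subtraction (1.27) or DESeq2 (1.24), and ran from 1.03 to 1.55 without single mice. The Cd22 fall after venetoclax over the days (-0.80) did not pass with TMM scaling (-0.79), all 20 housekeeping probes (-0.79), no filter (-0.80), the replicate block (-0.69), the lanes under 30000 counts left out (-0.80), limma (-0.84), limma after background subtraction (-0.97) or DESeq2 (-0.80), and ran from -1.06 to -0.61 without single mice. Under limma, and limma after background subtraction, the Tnfrsf13c difference between drugs on day 1 was -2.51 and -3.98, that between ruxolitinib days -2.70 and -3.28, and that of Ms4a1 -2.01 and -2.08, none past the threshold. Without single mice they ran from -3.56 to -2.41, -3.21 to -2.49 and -2.31 to -1.74. The cause of these losses was not tested.

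Of the 9 genes, the number passing after ruxolitinib on day 1 (1) was 3 with both vehicles as control or only the groups compared, where 30 and 77 of 655 probes passed in place of 18, and 0 with untreated mice, total counts, no filter, the replicate block, the lanes under 30000 counts left out, limma, background subtraction or DESeq2, where 14, 12, 17, 15, 15, 5, 3 and 15 probes passed. After venetoclax over the days (1) it was 2 with both vehicles or untreated mice as control (26 and 15 of 655 probes, in place of 19) and 0 in the 8 settings named for Cd22, where 15, 15, 16, 11, 13, 10, 6 and 12 probes passed in that order. For the difference between drugs on day 1 (1) and between ruxolitinib days (2) it was 0 under limma, and under limma after background subtraction, which called 1 and 0 of 655 probes for the drugs (in place of 11) and 2 and 0 for the days (in place of 10). Against untreated mice it was 1 for venetoclax on day 1, 2 on day 7 and 2 for ruxolitinib on day 7, where 25, 66 and 87 of 655 probes passed. It was 1 for venetoclax on day 1 with only the groups compared (19 of 655). The vehicle comparison gave 0 of the 9 and 1 of 655 each time. Without single mice these counts ran from 0 to 2 for the ruxolitinib days and from 0 to 1 for the other 3 comparisons with a call.

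Among the results recomputed singly, signs turned in 13 cases, none of them of a difference that passed. Scaling also turned signs among the 9 genes in counts given in the report. Ms4a1 after venetoclax on day 3 became -0.0131 with both vehicles and -0.52 with untreated mice, and on day 7 0.65 with untreated mice. Without single mice, Ms4a1 ran from -0.46 to 0.0651 after venetoclax on day 7, positive without venetoclax mouse 3, and from -0.71 to 0.42 after ruxolitinib on day 3, positive without vehicle mouse 2. Tnfrsf13c after venetoclax became -0.25 on day 3 with untreated mice, and on day 7 -0.11 with both vehicles. Without single mice the latter ran from -0.27 to 0.92, negative without vehicle mouse 2 (-0.09) or venetoclax mouse 1. After ruxolitinib on day 3 it became 0.10 with both vehicles and ran from -0.94 to 0.82 without single mice, positive without vehicle mouse 2. Cxcr5 in vehicle against untreated mice became 0.35 under limma after background subtraction, and the mean Tnfrsf13c difference after venetoclax became 0.0157 with a pseudocount of 10.

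Same-numbered mice are different animals and share only a number: over 12 values their deviations correlated between -0.35 and 0.30. The replicate block changed no other call. Total count scaling moved the median of all probes by up to -0.26. The settings that leave out the shallow lanes or add the run as a term were chosen after seeing the data.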
